A study of Mus musculus with 6 samples.

Results

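Sebaceous glands make sebum from wax esters, triglycerides and sterol esters, and 9 genes of that lipid production together with the melanocortin receptor gene Mc5r are described here across 6 libraries of mouse skin RNA. The 10 genes (Awat1, Awat2, Dgat2l6, Elovl3, Far1, Far2, Scd1, Scd3, Soat1 and Mc5r) were taken by symbol from the 54146 gene IDs of the files, all 10 were found, and all 10 passed the filter of a mean of at least 0.1 FPKM. FPKM is the number of fragments scaled by exon length and by the library's total. The libraries came from skin of 3 mice kept under chronic restraint stress (CRS), a model in which an animal is confined repeatedly, and from skin of 3 control mice (CON), all sampled after 12 weeks. Strain, sex, age and skin region of the animals are not given in the sources used here, and neither is how long each restraint lasted. The series title places these libraries in work on pigment formation under psychological stress. Awat1, Awat2 and Dgat2l6 are annotated on the X chromosome, Elovl3, Scd1 and Scd3 on chromosome 19, Soat1 on chromosome 1, Far2 on chromosome 6, Far1 on chromosome 7 and Mc5r on chromosome 18.

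A sebocyte, the cell of the gland, fills with lipid and then breaks up to release it. In this pathway saturated fatty acids are elongated and desaturated, some are reduced to fatty alcohols by the Far enzymes, and wax synthases join alcohol and fatty acid to a wax ester. Soat1 esterifies cholesterol in parallel, and Mc5r, a receptor for melanocortin peptides, is needed for normal sebum output in mice. Loss of Scd1 in the asebia mouse leaves the sebaceous glands underdeveloped.

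A pair of libraries stood apart, CON replicate 1 by its muscle and mitochondrial transcripts and CRS replicate 2 by a shift with gene length. That shift ran opposite to those of CRS replicates 1 and 3. CON replicate 3 had the lowest depth and was the lowest library for 7 of the 10 genes. The values of these libraries are given below with the results they touch. The wax synthase gene Awat1 and its neighbour Dgat2l6 had higher values in all CRS mice than in any CON mouse, by 1.56 (SE 0.43) and 1.39 (SE 0.45) on the log2 scale, while Awat2, the other wax synthase gene, differed by 0.093 (SE 0.40). Far2 also lay higher in all CRS mice (1.08, SE 0.55), and its paralog Far1 did not (-0.024, SE 0.39). In bulk skin a change in the number of cells of a type and a change in RNA per cell cannot be told apart. Of the 10 genes 8 had a log2 fold change above 0, 9 did without CON replicate 1, 7 without CRS replicate 2 and 7 without both. No gene passed the threshold of an adjusted p of 0.05 with limma (Benjamini-Hochberg over 28389 genes), where 0 genes of all (0%) were called. At an unadjusted p under 0.05 by limma, 261 genes (0.919%) had higher values under restraint and 462 (1.63%) lower ones. Of the 10 genes 2 were higher at that level, Awat1 and Dgat2l6, and 0 were lower. That count was 1 without CRS replicate 3 and when libraries were scaled without mitochondrial and muscle genes, Awat1 in both cases. Without CRS replicate 2 it was 3 higher (with Elovl3) and 1 lower (Soat1). In that fit 778 genes of all were higher and 4098 lower at that level. Values of all 3 CRS mice above those of all 3 CON mice were found in 3 of the 10 genes, against 1.65% of all genes tested. The median log2 fold change of the 10 genes was 0.74, against -0.20 over all genes tested, of which 32.2% were above 0, and it was 0.37 without CON replicate 3. The genes were chosen with earlier results of these data known, so their counts are a description and carry no test of the group.

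Awat1, Dgat2l6 and Awat2 are relatives of the triglyceride synthase gene Dgat2 and lie in 1 stretch of the X chromosome. In the order of the GENCODE annotation only the protein-coding genes Otud6a and Igbp1 stand between Awat2 and Dgat2l6, and none stands between Dgat2l6 and Awat1. The 250 bases before the RefSeq start of each gene are shown because these neighbours had unlike differences between the groups. The windows are chrX:100571997-100572246 on the plus strand for Awat1, chrX:100524588-100524837 on the plus strand for Dgat2l6 and chrX:100442718-100442967 on the minus strand for Awat2, in build GRCm38.p6 of the RefSeq table, each 5′ to 3′ on the strand of its gene. Awat2 has another start that is not shown. Capitals mark matches on either strand to the motifs listed after them.
Awat1: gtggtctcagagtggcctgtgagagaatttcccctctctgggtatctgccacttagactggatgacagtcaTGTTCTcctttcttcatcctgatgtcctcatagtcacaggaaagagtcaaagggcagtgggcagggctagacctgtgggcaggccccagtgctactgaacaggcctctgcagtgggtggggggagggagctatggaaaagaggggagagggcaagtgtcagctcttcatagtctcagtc
Dgat2l6: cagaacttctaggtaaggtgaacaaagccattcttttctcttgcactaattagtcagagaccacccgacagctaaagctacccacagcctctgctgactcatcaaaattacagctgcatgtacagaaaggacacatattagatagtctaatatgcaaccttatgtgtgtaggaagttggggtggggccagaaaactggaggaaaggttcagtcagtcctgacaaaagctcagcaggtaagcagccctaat
Awat2: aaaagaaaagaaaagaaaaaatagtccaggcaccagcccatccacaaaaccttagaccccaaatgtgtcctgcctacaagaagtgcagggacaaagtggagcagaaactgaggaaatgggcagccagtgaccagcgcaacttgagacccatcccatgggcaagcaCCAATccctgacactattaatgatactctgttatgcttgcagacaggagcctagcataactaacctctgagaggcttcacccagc
The motifs searched on both strands were the TATA box TATAAA, the promoter element CCAAT, the nuclear receptor hexamer AGGTCA, the E-box CACGTG, the sterol response element TCACNCCAC and the glucocorticoid or androgen receptor hexamer AGAACA. The Awat1 window held 1 match, TGTTCT, which is AGAACA on the other strand, from 179 to 174 bases before the start. The Awat2 window held 1 CCAAT, from 85 to 81 bases before the start, and the Dgat2l6 window held none of these letters. AGAACA occurred in 16.1% and CCAAT in 33.9% of the 32851 windows of this length in the table. Starts from the table were used for 7 of the 10 genes, with 8 windows, of which 4 held CCAAT and 1 held AGAACA. For the other 3 genes no start was used, whether or not the table lists one. The TATA box, the nuclear receptor hexamer, the E-box and the sterol response element were in 0 of the 8 windows and in 12.4%, 14.02%, 6.02% and 1.05% of all windows. A match of letters is a description and not a binding site.

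Awat1 encodes an acyltransferase that makes wax esters from fatty alcohols. Its level was 9.93, 14.3 and 5.52 FPKM in CON replicates 1 to 3 and 33.4, 18.0 and 33.9 FPKM in CRS replicates 1 to 3. The groups did not overlap, with CRS replicate 2 nearest to the controls. The means were 9.90 ± 4.37 and 28.4 ± 9.05 FPKM (SD, n = 3 each), a ratio of means of 2.87. The log2 fold change was 1.56 (SE 0.43, 95% interval 0.58 to 2.54; limma unadjusted p = 0.00616, adjusted p = 0.9999), and Awat1 ranked 47 by p-value among all genes tested. The exact two-sided permutation p was 0.1, the smallest that 3 against 3 mice allow. Between 102 and 1188 fragments per library stood behind these values. With each library left out in turn the difference lay between 1.19 (without CON replicate 3) and 1.87 (without CON replicate 2).

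Dgat2l6, a member of the same acyltransferase family, had the lowest mean level of the 10 genes in both groups, with 0.558, 1.17 and 0.905 FPKM in the control mice against 2.57, 1.81 and 2.86 FPKM in the restrained mice. Every CRS mouse lay above every CON mouse. The means were 0.879 ± 0.309 and 2.41 ± 0.542 FPKM (SD, n = 3 each), and the log2 fold change was 1.39 (SE 0.45, 95% interval 0.36 to 2.41; limma unadjusted p = 0.0138, adjusted p = 0.9999; exact permutation p = 0.1). It lay between 1.13 (without CON replicate 1) and 1.604 (without CON replicate 2) with each library left out. Its unadjusted p with limma was 0.0586 without CON replicate 1, 0.0580 without CRS replicate 3 and 0.0650 when scaled without mitochondrial and muscle genes. The values rest on 50 to 342 fragments per library. The merged exons of Dgat2l6 span 4741 nt because a retained-intron transcript is annotated, while its coding transcript has 1640 nt, so its FPKM depends on which of these was expressed.

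Awat2 encodes the wax synthase that can also esterify retinol. It stood at 3.66, 4.48 and 2.37 FPKM in the control mice against 4.33, 2.49 and 4.40 FPKM in the restrained mice, and the groups overlapped fully. The means were 3.50 ± 1.06 and 3.74 ± 1.09 FPKM (SD, n = 3 each). The 95% interval of its log2 fold change ran from -0.82 to 1.01 (limma unadjusted p = 0.822, exact permutation p = 0.7). The estimate for Awat1 lay outside this interval, but the interval of Awat1, from 0.58 to 2.54, overlapped it. Igbp1, which lies between Awat2 and Dgat2l6, was at 16.4 to 21.7 FPKM in the control mice against 10.7 to 18.3 FPKM in the restrained mice, overlapping as well.

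**Figure D1:**
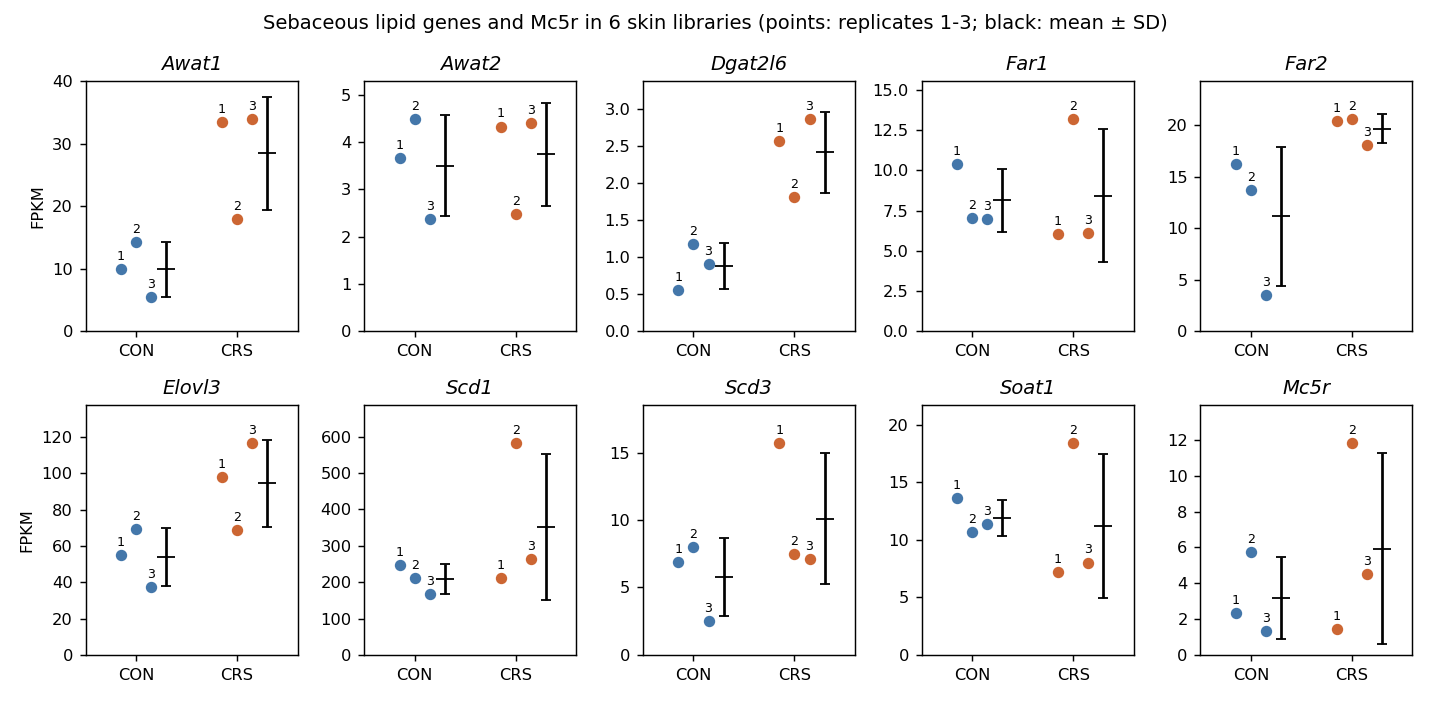
Level of each of the 10 genes in FPKM (vertical axes from 0) for CON (blue) and CRS (orange), with points numbered by replicate and black bars for mean ± SD of 3 mice. Awat1, Dgat2l6 and Far2 show no overlap between groups, and CRS replicate 2 holds the highest Far1, Far2, Scd1, Soat1 and Mc5r values, for Far2 just above CRS replicate 1.

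Within each library Awat1 was compared with Awat2, since a ratio of genes in 1 library does not move with the scaling of that library. The FPKM ratio of Awat1 to Awat2 was 2.72, 3.18 and 2.33 in CON and 7.72, 7.23 and 7.70 in CRS. The CRS ratios lay close together and far from all CON ratios, also in CRS replicate 2, where both genes were lower than in the other CRS mice. On the log2 scale the mean was 1.42 ± 0.23 in CON and 2.88 ± 0.065 in CRS (SD, n = 3 each), a difference of 1.46 (exact two-sided permutation p = 0.1, the smallest possible, 0.3 after Benjamini-Hochberg adjustment over 3 ratios). With each library left out it lay between 1.35 and 1.58. The same comparison for Far2 over Far1 gave 1.57, 1.95 and 0.498 in CON and 3.40, 1.56 and 2.96 in CRS. These ratios overlapped, and the log2 difference of 1.11 (exact permutation p = 0.3, adjusted 0.45) was 0.51 without CON replicate 3. For Scd3 over Scd1 the log2 difference was 0.23 (exact permutation p = 1, adjusted 1), and it turned to -0.44 without CRS replicate 1 and to -0.13 without CON replicate 3.

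**Figure D2:**
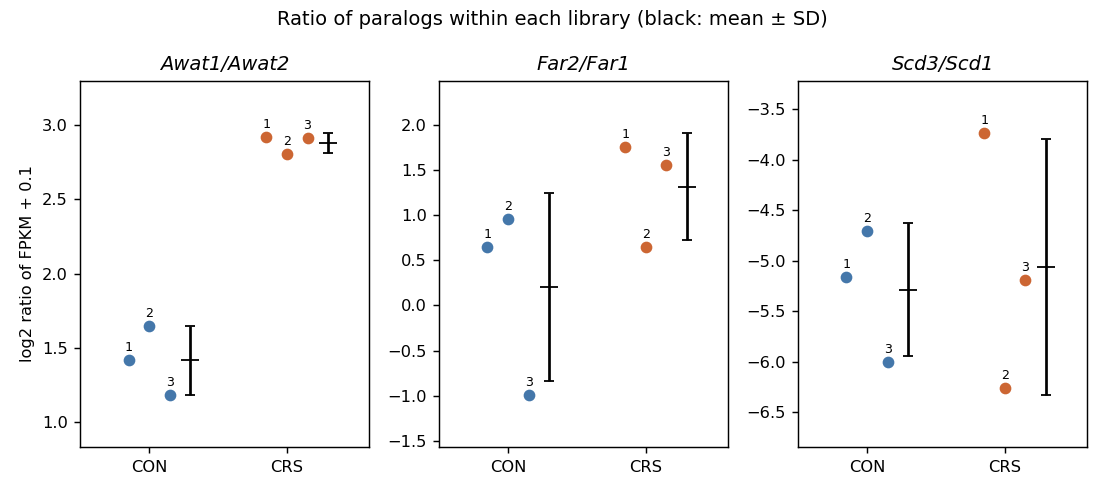
Log2 ratio of paralogs (FPKM + 0.1) within each library for CON (blue) and CRS (orange), with points numbered by replicate and black bars for mean ± SD of 3 mice. The Awat1/Awat2 ratio separates the groups, at 1.42 ± 0.23 in CON and 2.88 ± 0.065 in CRS, whereas the other ratios overlap.

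Far1 and Far2 reduce fatty acyl-CoA to the fatty alcohols that wax synthases use, and Far1 also supplies alcohols for ether lipids in many tissues. Far2 stood at 16.2, 13.7 and 3.48 FPKM in the control mice against 20.4, 20.6 and 18.1 FPKM in the restrained mice. The groups did not overlap, CON replicate 3 being far below the other CON mice. The log2 fold change was 1.08 (SE 0.55, 95% interval -0.16 to 2.33; limma unadjusted p = 0.0806; exact permutation p = 0.1), and without CON replicate 3 it was 0.39. The annotation places the opposite-strand gene Ergic2 over 11.4% of the Far2 exons, and strand use in counting is not given in the sources used here, so some fragments may belong to it. Far1 stood at 10.4, 7.03 and 6.99 FPKM in the control mice against 6.01, 13.2 and 6.09 FPKM in the restrained mice. Its groups overlapped, CRS replicate 2 holding the highest and the other CRS mice the lowest values. The log2 fold change of -0.024 (SE 0.39, 95% interval -0.93 to 0.88) turned to 0.16 without CON replicate 1, 0.17 without CRS replicate 1 and 0.16 without CRS replicate 3, and to 0.21 under median-ratio scaling.

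Elovl3 elongates saturated and monounsaturated fatty acyl chains and is found in sebaceous glands and in brown fat. It stood at 55.2, 69.1 and 37.6 FPKM in the control mice against 97.9, 69.0 and 117 FPKM in the restrained mice. The groups met only where CRS replicate 2 fell just under CON replicate 2. The means were 54.0 ± 15.8 and 94.6 ± 24.1 FPKM (SD, n = 3 each), and the log2 fold change was 0.82 (SE 0.37, 95% interval -0.019 to 1.66; limma unadjusted p = 0.0543; exact permutation p = 0.2). Across the 6 libraries its log2 values ran with those of Awat1 (Pearson r = 0.98, given without a test since the libraries share depth and makeup).

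Scd1 introduces the double bond of oleic and palmitoleic acid and was the most abundant of the 10 genes. It stood at 248.3, 210.6 and 166.5 FPKM in the control mice against 210.7, 582.5 and 262.8 FPKM in the restrained mice. CRS replicate 2 stood far above the other 5 mice, which overlapped. The log2 fold change of 0.63 (SE 0.48, limma unadjusted p = 0.2255; exact permutation p = 0.2) was 0.19 without CRS replicate 2. Scd3, the desaturase isoform described in sebocytes, stood at 6.86, 7.995 and 2.49 FPKM in the control mice against 15.7, 7.505 and 7.10 FPKM in the restrained mice. Here CRS replicate 1 was the highest and CON replicate 3 the lowest, and the other 4 mice lay together. The log2 fold change of 0.86 (SE 0.52, limma unadjusted p = 0.133) dropped to 0.34 when CON replicate 3 was left out and to 0.49 when CRS replicate 1 was. In the GENCODE transcripts 4.86% of the 50-base stretches of Scd3 also occur in Scd1 and 3.49% of those of Scd1 occur in Scd3, so fragments from those stretches could be assigned to either gene. Awat1, Awat2, Dgat2l6, Elovl3 and Mc5r shared 0% of such stretches with other genes.

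Soat1 forms cholesteryl esters. It stood at 13.6, 10.7 and 11.3 FPKM in the control mice against 7.17, 18.4 and 8.03 FPKM in the restrained mice. The CON values lay inside the CRS range, with CRS replicate 2 above and the other CRS mice below all controls. The log2 fold change was -0.21 (SE 0.40, 95% interval -1.13 to 0.71), close to the median of all genes. It was -0.63 without CRS replicate 2 (limma unadjusted p = 0.0178, adjusted p = 0.2134) and 0.044 without CRS replicate 1. Without CRS replicate 2, 4098 genes of all were lower at an unadjusted p under 0.05 by limma. Mc5r, the only receptor among the 10 genes, stood at 2.37, 5.74 and 1.36 FPKM in the control mice against 1.43, 11.8 and 4.54 FPKM in the restrained mice. It had the largest SE of the 10 genes, and its log2 fold change of 0.67 (SE 0.78, 95% interval -1.11 to 2.45) turned to -0.050 without CRS replicate 2, while it was 1.43 without CRS replicate 1, 1.21 without CON replicate 2 and 0.21 without CON replicate 3.

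**Figure D3:**
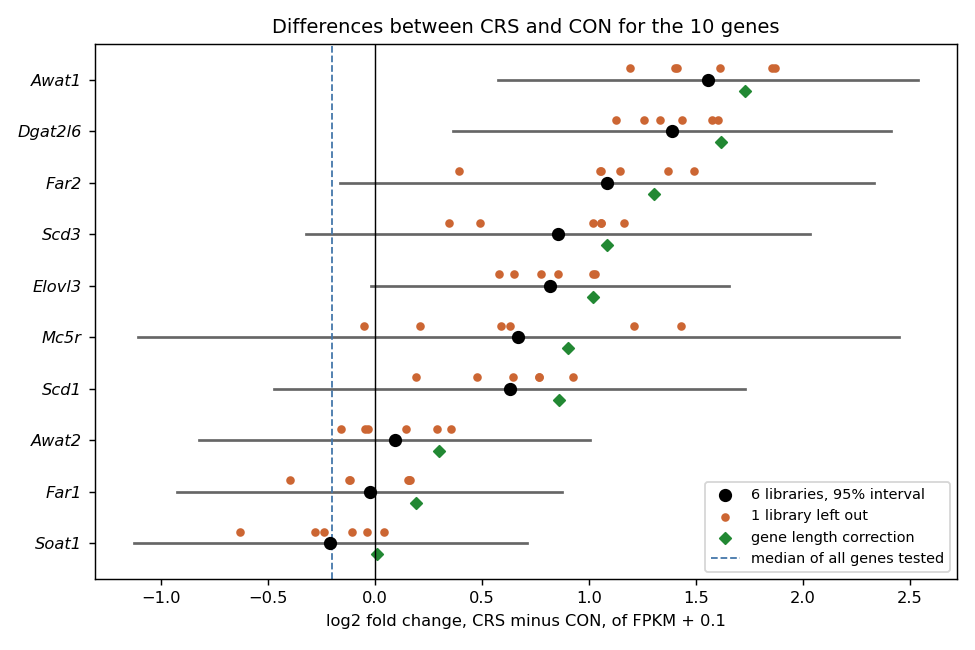
Log2 fold change (CRS minus CON, FPKM + 0.1) of each gene (black) with its 95% interval (grey line), the values with 1 library left out (orange) and the value after a gene length correction (green), beside the median of all genes tested (dashed). With all 6 libraries the intervals of Awat1 and Dgat2l6 lie above 0, at 0.58 to 2.54 and 0.36 to 2.41, and the points of Awat2, Far1, Soat1 and Mc5r fall on both sides of 0.

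The 10 genes did not share 1 profile over the mice, and the longest and shortest of them differed. Far1 and Soat1, the longest of the 10 at 8055 and 9791 nt of merged exon, were correlated at r = 0.95 over the 6 libraries, and each was correlated negatively with Awat1, at -0.29 and -0.51. Far1, Far2, Scd1, Soat1 and Mc5r had their highest value in CRS replicate 2. For Far2 it was only just so, at 20.6 FPKM against 20.4 FPKM in CRS replicate 1. Awat1, Awat2 and Elovl3, the shortest of the 10 by merged exons at 1390 to 2126 nt, had their lowest CRS value in CRS replicate 2. Dgat2l6 did as well, with 4741 nt of merged exon but a coding transcript of 1640 nt. CRS replicate 2 differed by length over the whole transcriptome. Genes of at most 500 nt lay 1.77 below the mean of the other 5 libraries (median log2 deviation -1.77, 1499 genes of at least 1 FPKM), and genes above 8000 nt lay above it by 0.92 (1938 genes). In CRS replicate 1 the same medians were 1.20 and -0.52, and in CRS replicate 3 they were 0.13 and -0.80. Far1 deviated by 0.87 and Soat1 by 0.89 in CRS replicate 2, near the 0.92 of genes of their length. Far2, the next longest by merged exons at 7313 nt, deviated by 0.73 where its bin median was 0.68. Its longest coding transcript has 3480 nt, and the median of the bin of 2001 to 4000 nt was 0.23. Mc5r and Scd1 deviated by 2.13 and 1.42, where the medians of their length bins were 0.23 and 0.68. Awat1 deviated by 0.21 where the bin median was -0.40, and Awat2 by -0.58 where it was 0.23.

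A correction of each library for gene length, chosen after these data were seen, was therefore set beside the values as deposited. After it the log2 fold changes were 1.73 for Awat1, 1.62 for Dgat2l6, 1.30 for Far2, 1.08 for Scd3, 1.02 for Elovl3, 0.90 for Mc5r and 0.86 for Scd1. Awat2 was at 0.30, Far1 at 0.19 and Soat1 at 0.0082, against a median of 0.022 over all genes. The groups then did not overlap for Awat1, Dgat2l6, Elovl3 and Scd1, and they overlapped for Far2. That made 4 of the 10 genes, against 5.5% of all genes under the same correction. The same 4 genes were higher at an unadjusted p under 0.05 by limma, against 2.67% of all genes, which compares with 2 of 10 for the values as deposited and 1 of 10 under the settings named above. The Awat1/Awat2 log2 ratio differed by 1.43. The adjusted p of all 10 genes remained 0.9999 with limma. For Dgat2l6, Far2 and Far1 the correction used merged exon lengths of 4741, 7313 and 8055 nt. Their longest coding transcripts are shorter, at 1640, 3480 and 4962 nt, so their corrected values depend on which length applies.

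**Figure D4:**
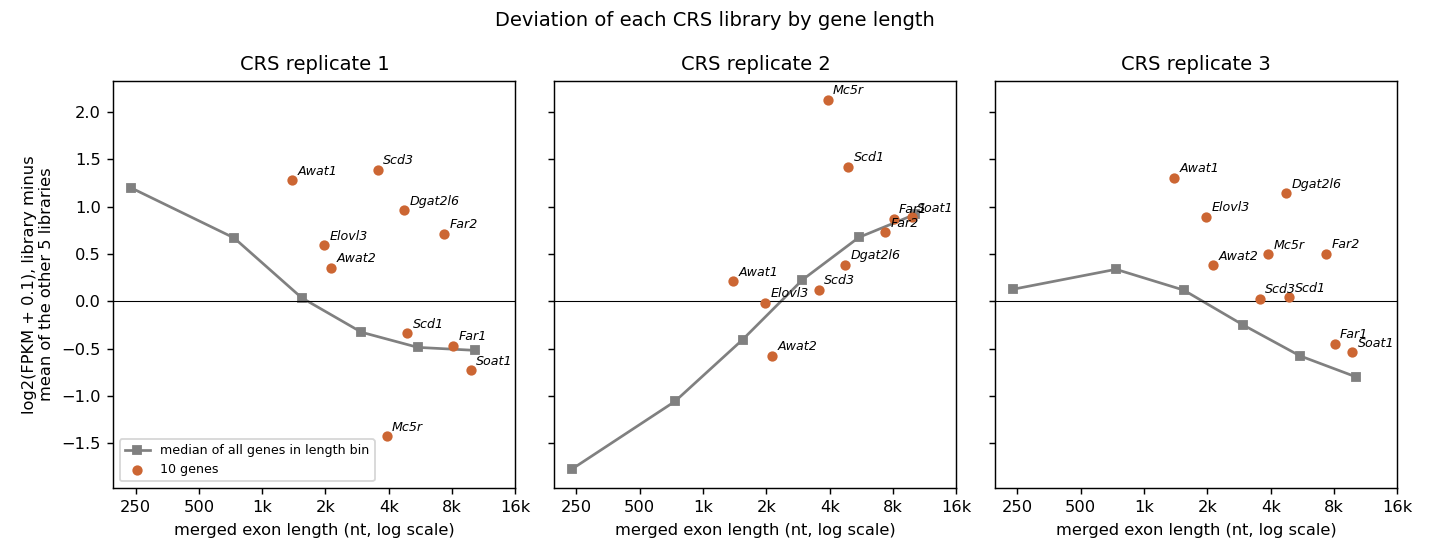
Deviation of each CRS library from the mean of the other 5 libraries in log2(FPKM + 0.1) against merged exon length (log axis), as medians of all genes of at least 1 FPKM in 6 length bins, placed at their median length (grey), and for the 10 genes (orange). In CRS replicate 2 the grey line climbs from -1.77 to 0.92 and Far1 and Soat1 sit on it. In CRS replicate 1 it runs from 1.20 to -0.52 and in CRS replicate 3 from 0.13 to -0.80.

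Other genes known from sebaceous glands were listed beside the 10. Of 18 such genes, all tested, 15 had a log2 fold change above 0 and 3 below, with a median of 0.24 against -0.20 over all genes. Only Krt79, a keratin of the gland's duct, was at an unadjusted p under 0.05 with limma, at 33.5 ± 10.3 FPKM without and 72.5 ± 23.9 FPKM with restraint (log2 fold change 1.11, SE 0.37, adjusted p = 0.9999). Krt79, the transcription factor gene Gata6 and Krt7 had all CRS values above all CON values, which 1.65% of all genes tested also showed. Gata6 and Krt7 were named after their values were seen. Both were low, averaging 1.11 and 0.369 FPKM under restraint, and their unadjusted p with limma was 0.231 and 0.249. Cidea, a lipid droplet protein gene, was at 22.1 ± 11.1 and 40.2 ± 18.4 FPKM, and its groups overlapped. Without CON replicate 3 the median was 0.16 and 0 of the 18 were at an unadjusted p under 0.05 by limma. Of the 18 genes 11 were above 0 without CRS replicate 2, and 8 were above 0 when libraries were scaled without mitochondrial and muscle genes (median -0.021, against -0.44 over all genes). Under that scaling 7 of the 10 sebaceous lipid genes and Mc5r were above 0.

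The wider lipid pathways had lower medians than the 10 genes. Among 24 tested genes of fatty acid synthesis, elongation and desaturation, 15 were above 0 and 9 below, with a median log2 fold change of 0.077. In 2 of them all CRS values were above and in 2 below all CON values, against 1.65% and 5.19% of all genes, and 0 were at an unadjusted p under 0.05 with limma. On the log2 scale Elovl7, an elongase gene, differed by 0.67 (SE 0.39) and the dehydratase gene Hacd1 by -0.63 (SE 0.39). Without CRS replicate 2 only 10 of the 24 were above 0 and the median was -0.28, against -0.21 over all genes. In that fit 7 of the 24 were lower at an unadjusted p under 0.05 with limma, and 4098 genes of all were. With library weights 6 of the 24 were lower at that level, and 6525 genes of all were. Among 10 genes of fatty alcohol, aldehyde and ether lipid metabolism 2 were above 0, with a median of -0.23. The fatty aldehyde dehydrogenase gene Aldh3b2 was the 1 gene of that list at an unadjusted p under 0.05, at 26.5 ± 8.68 FPKM without and 44.0 ± 7.22 FPKM with restraint (SD, n = 3 each), with no overlap of the groups (log2 fold change 0.77, SE 0.33, limma unadjusted p = 0.0480, adjusted p = 0.9999). The list held 0 higher genes at that level when any 1 library other than CON replicate 2 was left out, with voom and in 5 further alternatives, so the Aldh3b2 call was lost there. It held 5 lower genes without CRS replicate 2 (median -0.39) and 4 with library weights, beside the 4098 and 6525 genes of all given above. Gnpat, an enzyme of ether lipid synthesis, differed by -0.38 (SE 0.31) on the log2 scale.

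Among 17 genes of glycerolipid acylation and lipid droplets 12 were above 0, with a median log2 fold change of 0.18. Abhd5, the co-activator of triglyceride lipase, was at 8.70 ± 2.56 FPKM without and 14.4 ± 0.833 FPKM with restraint without overlap (log2 fold change 0.77, SE 0.32, limma unadjusted p = 0.0420, adjusted p = 0.9999), and the acyltransferase gene Gpat4 differed by -0.50 (SE 0.37) on the log2 scale. This list's 1 call was lost without CON replicate 1, CON replicate 3, CRS replicate 1 or CRS replicate 3, with voom and in 4 further alternatives. Without CRS replicate 2 its median was -0.12, against -0.21 over all genes. Of 19 genes of sterol synthesis and esterification 8 were above 0 and 11 below, with a median of -0.045. Soat2, the paralog of Soat1, was low in all libraries, at 0.278 ± 0.103 FPKM without and 0.102 ± 0.0879 FPKM with restraint, and Lcat differed by -0.82 (SE 0.56) on the log2 scale. The count above 0 was 4 without CRS replicate 2, with a median of -0.23 against -0.21 over all genes. In that fit 3 of the 19 were lower at an unadjusted p under 0.05 with limma, and 4098 genes of all were. The count above 0 was 12 without CON replicate 3 or CRS replicate 1 and 13 without CRS replicate 3. It was 3 when scaled without mitochondrial and muscle genes and 14 under median-ratio scaling, which moves the median of all genes to 0.0073.

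Mc5r belongs to the melanocortin system, whose other genes lay on both sides of 0. Of 9 tested genes 4 were above 0 and 5 below, and 1 was lower at an unadjusted p under 0.05 with limma. That gene was Mc1r, the receptor of pigment cells, at 5.90, 3.23 and 6.49 FPKM in the control mice against 3.09, 1.83 and 1.61 FPKM in the restrained mice, with all CRS values below all CON values, which 5.19% of all genes also showed. The list held 0 genes at that level without CON replicate 1, CON replicate 3 or CRS replicate 3, without CON replicate 1 and CRS replicate 2 together, under upper-quartile scaling and after the length correction, so the Mc1r call was lost there. Mc1r differed by -1.22 (SE 0.42) on the log2 scale, opposite in sign to the 0.67 (SE 0.78) of Mc5r, and this contrast between receptors was not tested. The precursor gene of the ligands, Pomc, was at 0.120, 0.0761 and 0.228 FPKM in the control mice against 0.750, 0.118 and 0.120 FPKM in the restrained mice, so 1 CRS mouse stood above the rest. The antagonist gene Agrp differed by 0.67 (SE 0.50) on the log2 scale, the adrenal-type receptor gene Mc2r by 0.58 (SE 0.67) and its accessory protein gene Mrap by -0.16 (SE 0.45). The prohormone convertase genes Pcsk1 and Pcsk2 had log2 differences of -0.0091 (SE 0.58) and -0.67 (SE 0.54), and the melanocortin signalling partners Mgrn1 and Atrn at 0.23 (SE 0.42) and -0.11 (SE 0.51). Apart from Mc1r the groups overlapped in each of these genes.

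Over the 6 libraries the mean profile of the 10 genes was most alike in Layn (r = 0.98), the carboxylesterase gene Ces4a (0.98), the very long chain elongase gene Elovl4 (0.98), Tmem171 (0.98) and the anion exchanger gene Slc4a9 (0.97), among 11665 genes of at least 1 FPKM, of which 23 had an r above 0.9. Ces4a stood at 4.26, 6.76 and 1.27 FPKM in the control mice against 8.83, 9.68 and 8.01 FPKM in the restrained mice. Elovl4 stood at 170.4, 177.8 and 112.6 FPKM in the control mice against 184.1, 207.7 and 186.0 FPKM in the restrained mice. In both, CON replicate 3 was the lowest library, as it was for 7 of the 10 genes (Awat1, Awat2, Elovl3, Far2, Scd1, Scd3 and Mc5r). With 6 points that share depth and tissue makeup these values are descriptions.

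The libraries differed in makeup. Depth, recovered from the FPKM values, was 13.3 to 25.7 M fragments, lowest in CON replicate 3 and highest in CRS replicate 2. Keratinocyte genes were abundant in every library, with Krt14 at 769.1 to 1198 FPKM. Of 7 hair shaft keratin genes 6 had a log2 fold change above 0, against 32.2% of all genes tested. In 3 of the 7 all CRS values were above all CON values, against 1.65% of all genes tested. The summed FPKM of these keratin genes was 1374 to 4450 in CON and 4513 to 8178 in CRS, also without overlap. Their part in the Awat1 and Dgat2l6 results was not tested. All 8 suprabasal keratinocyte genes were above 0, but only 5 were without CON replicate 1 and 4 with library weights. The sum of the 8 was 368.9 to 842.4 in CON and 645.5 to 1168 in CRS. The sum of 8 basal keratinocyte genes was 1569 to 2249 in CON and 2004 to 2568 in CRS, and centring on these genes left Awat1 at 1.58 and Dgat2l6 at 1.41. Adipocytes also express Scd1, and the sum of 10 adipocyte genes overlapped, at 593.1 to 1107 in CON and 517.9 to 1127 in CRS. No gene of these marker lists was at 0 in any library. The brown fat gene Ucp1, relevant to Elovl3 and Cidea, was at 0.291 to 1.06 FPKM in the control mice against 0.095 to 1.53 FPKM in the restrained mice. All 10 skeletal muscle genes had a log2 fold change below 0 (median -1.90, 2 at an unadjusted p under 0.05 with limma), and 8 did without CON replicate 1. Myh1 and Myh2 had higher means in CRS than in CON (19.9 against 9.18 and 2.62 against 2.31 FPKM). In 2 of the 10 all CRS values were below all CON values, against 5.19% of all genes. Without CON replicate 1 and CRS replicate 2 together the median was -1.80 with 8 of 10 lower at that level, where 2843 genes of all were lower. The sum of the 10 muscle genes was 13183 FPKM in CON replicate 1, 1463 and 2589 in the other CON mice and 452.5 to 2860 in CRS. Mitochondrial transcripts were 15.3% of fragments in CON replicate 1 and 2.50% to 4.19% in the other libraries. CON replicate 1 also had the lowest sums of fibroblast genes (239.6, others 807.6 to 1284 FPKM) and macrophage genes (146.6, others 251.2 to 434.9 FPKM). The part of these differences in the results was not tested. Without CON replicate 1 Awat1 was at 1.61 and Dgat2l6 at 1.13. That library also had 2.80 FPKM of Xist beside Y-linked transcripts, against 0.0221 to 0.168 in the others, which bears on the X-linked genes Awat1, Awat2 and Dgat2l6. Whether it holds RNA of 1 mouse only was not tested, so its standing as 1 of 3 control mice rests on its label. The Awat1/Awat2 log2 ratio differed by 1.46 without it.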

How the data were processed

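Skin RNA of 3 CON and 3 CRS mice was isolated with Trizol and sequenced on Illumina libraries, per the labels' protocols. The authors deposited FPKM, 1 file per library, with HISAT2 and GRCm39 named in the submitters' processing notes. Which counter and annotation they used is not given in the sources used here. GENCODE M21 (GRCm38) supplied symbols and merged exon lengths for 54079 of the 54146 IDs.

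Whole fragments were recovered from the steps between FPKM values after multiplying by length (98.1% to 98.3% of values up to 100 fragments were within 0.05 of a whole number), giving the depth and the fragments per gene. Values entered as log2(FPKM + 0.1), keeping genes whose mean reached 0.1 FPKM, so fold changes of low genes are understated. Groups were compared with limma 3.58.1 (R 4.3.3; mean-variance trend, two-sided, Benjamini-Hochberg over 28389 genes) and, per gene, with an exact permutation test. The limma p-values rest on the spread between these mice, moderated over all genes tested. The exact test ranks the ways of splitting the 6 libraries and cannot go under 0.1. The script was tested on simulated data.

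The 10 genes and the lists were chosen with earlier results of these data known. Named were the 10 genes, the 2 other genes of lowest p in each list, every tested melanocortin gene and the 5 genes most correlated with the mean profile. Gata6, Krt7, Igbp1 and the sex-linked genes were named after their values were seen. Alternatives were other pseudocounts, filters, scalings, variance models, library weights, a replicate block, libraries left out, voom on fragments and, added later, a length correction (lowess, span 0.3). Tables and figures used Python 3.11.15, pandas 2.3.3 and matplotlib 3.10.9.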

Additional observations from a re-analysis of the deposited data

How the results depend on the processing

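Awat1, Dgat2l6, Elovl3, Far2, Scd1 and Scd3 had log2 fold changes above 0 under all 20 alternatives run, Awat1 between 1.19 and 1.91 and Dgat2l6 between 0.86 and 1.62. Awat1 was at an unadjusted p under 0.05 in 20 of them and Dgat2l6 in 17. The smallest adjusted p of any of the 10 genes was 0.0898, with library weights, and 0 genes were called higher or lower under any alternative. Far1 turned to 0.21 under median-ratio scaling, 0.17 under upper-quartile scaling, 0.0013 when centred on basal keratinocyte genes and 0.19 after the length correction, and ranged from -0.39 to 0.17 with each library left out. Soat1 turned to 0.030 under median-ratio scaling and 0.0082 after the length correction, and ranged from -0.63 to 0.044. Awat2 turned to -0.17 when scaled without mitochondrial and muscle genes and ranged from -0.16 to 0.36. Mc5r turned to -0.13 without CON replicate 1 and CRS replicate 2 together and ranged from -0.050 to 1.43. The cause was not tested. The median of the 10 genes ranged from 0.37 to 1.09 with each library left out, its ends being without CON replicate 3 and without CON replicate 2. The Scd3/Scd1 ratio ranged from -0.44 to 0.83, while Awat1/Awat2 stayed between 1.35 and 1.58 and Far2/Far1 between 0.51 and 1.49.

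Genes at an unadjusted p under 0.05 with limma numbered 261 higher and 462 lower, and 122 to 1109 higher and 132 to 6525 lower over the alternatives. The split was 425 to 183 under median-ratio scaling, 365 to 172 under upper-quartile scaling, 184 to 565 when scaled without mitochondrial and muscle genes, 155 to 430 when centred on basal keratinocyte genes and 758 to 333 after the length correction. Leaving out CON replicates 1, 2 and 3 gave 122 to 132, 363 to 690 and 196 to 224, and leaving out CRS replicates 1, 2 and 3 gave 165 to 932, 778 to 4098 and 190 to 184. It was 1109 to 6525 with library weights and 218 to 340 with voom on recovered fragments. Replicate numbers are not said to pair the mice, and same-numbered mice deviated together little (r = -0.12, 0.062 and 0.087). A replicate block called 0 genes higher and 0 lower (256 and 370 unadjusted) and left Awat1 at 1.56. Low fragment numbers limit Dgat2l6 and Awat2 most, with 50 and 67 fragments in their thinnest libraries.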
